A study of Mus musculus with 56 samples.

Results

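Nuclear MBNL1 was added to N2a cells with an siRNA against Fmr1, and RNA from those cells was compared with RNA from siFmr1 cells that received the control plasmid. The compared samples were chosen by their labels: 3 siFmr1 nMBNL1 samples against 3 siFmr1 pcDNA samples, 6 of the 56 samples of the series. N2a is a mouse neuroblastoma cell line. All 6 samples carried siFmr1, an siRNA against the transcript of the fragile X protein FMRP, and they differed in the plasmid transfected with it by Lipofectamine 3000. The pcDNA group received the empty control plasmid, and the nMBNL1 group received FLAG-tagged nuclear MBNL1. The labels give neither the promoter of the plasmid nor the time after transfection, and they do not say whether replicates came from separate cultures, so the p-values below measure only the spread between these samples. The transfected cells were sequenced as a mixture, and RNA of cells that took up the plasmid was not separated from RNA of cells that did not. The comparison belongs to a co-transfection experiment of 15 samples in 5 groups, whose siNT pcDNA group (non-targeting siRNA with the control plasmid) is used here for reference levels.

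Muscleblind-like proteins are RNA-binding proteins with zinc fingers that recognise short motifs built around GC, such as UGCU and CGCU. In the nucleus they regulate alternative splicing, and in general binding within or before an exon goes with skipping and binding after it with inclusion. Their own transcripts are alternatively spliced, and a short exon that adds a nuclear localisation sequence is repressed by MBNL proteins themselves. FMRP is an RNA-binding protein that regulates translation, mainly in the cytoplasm, and is lost in fragile X syndrome.

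Gene values were the normalised counts deposited for the 15 samples. They summed to between 32266000 (siFmr1 pcDNA 2) and 32899000 (siFmr1 nMBNL1 1) in the 6 samples. The spacing of low values gave an estimate of 27595000 to 37536000 counted reads per sample, but too few values were whole multiples of that spacing for reads to be recovered. Of 23 neuroblastoma markers, at most 1 was listed at 0 in any of the 6 samples, with Prph at 59380 in the pcDNA group. Their summed value was 144570 to 153660 in the pcDNA samples and 129420 to 144830 in the nMBNL1 samples, so the ranges overlapped. None of the 22 that were tested was called by limma. An unadjusted limma p under 0.05 was found for 6 of the 22, and for 2901 of all 16242 tested genes. With only the 6 samples fitted, and also without siNT pcDNA, 6 of the neuroblastoma markers were called, all lower. These fits called 2314 and 2626 of all tested genes. None of the tested muscle (20), fibroblast (6), astrocyte (6), oligodendrocyte (6), microglia and macrophage (4) or endothelium (5) markers was called either, with 1, 1, 3, 0, 1 and 0 at an unadjusted p under 0.05. The summed fibroblast value was 4079 to 5112 in pcDNA and 3234 to 3893 in nMBNL1, mostly Fbln1, and the summed astrocyte value 1226 to 1486 and 1015 to 1202, mostly Sox9, without overlap. Endothelial sums were 992 to 1049 and 941 to 980. C1qa and C1qb of microglia, Slc1a3 and Fabp7 of astrocytes and Col1a2 of fibroblasts were at 0 in all 6 samples. Other members of the same lists were not, with pcDNA means of 87.4 for Tmem119, 161 for Aldh1l1 and 179 for Pdgfra. Vwf of endothelium (443), Cnp of oligodendrocytes (1165) and Myh3 of muscle (7237) were higher still.

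The added MBNL1 was visible in the gene table. Mbnl1 (chr3:60472830-60629750, GRCm38, plus strand) had values of 11032, 12133 and 13253 in nMBNL1 samples 1 to 3 against 4563, 4445 and 4694 in the pcDNA samples. The groups were far apart, and the fold was 2.66 (log2 fold change 1.41, SE 0.11, limma adjusted p 8.67e-06). The siNT pcDNA samples had 4410, 5017 and 3759, close to the pcDNA samples of siFmr1 cells. Plasmid transcripts and transcripts of the cells' own gene both count toward this value and cannot be told apart here.

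Fmr1, the siRNA target, was low in both groups. Its values were 587, 583 and 612 in the pcDNA samples and 418, 662 and 534 in the nMBNL1 samples, against 2819, 3604 and 2856 in siNT pcDNA. The nMBNL1 samples lay on both sides of the pcDNA samples, and the log2 fold change of -0.17 (SE 0.13) had a limma adjusted p of 0.518. Mbnl2, the paralog, had 3338, 3314 and 3505 in pcDNA and 2988, 2885 and 3039 in nMBNL1, without overlap. Its log2 fold change of -0.19 (SE 0.06) missed the threshold (limma adjusted p 0.0926) and passed it when only the 6 samples were fitted (limma adjusted p 0.0262). Mbnl3 was at or near 0 in every sample. The FMRP paralogs Fxr1 (log2 fold change 0.15, limma adjusted p 0.279) and Fxr2 (-0.07, limma adjusted p 0.712) were not called. The Fxr1 groups did not overlap (12400, 12678 and 13439 with nMBNL1 against 11370, 11109 and 12144), and Fxr1 was called without siNT pcDNA (limma adjusted p 0.0299) but not with only the 6 samples (limma adjusted p 0.0691). Groups without overlap were common, at 5422 of all 16242 tested genes.

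Alternative exons were the next readout, and the sequences of those on which the results turn are shown first. Each line gives the exon in capitals with 12 bases of the exon before and after it in lower case, 5′ to 3′ on the transcribed strand, from GENCODE M21 transcripts of GRCm38. The first 3 come from the muscleblind genes themselves and show the nuclear localisation exon in both paralogs, which the added protein is known to act on.
Mbnl1 54-base exon: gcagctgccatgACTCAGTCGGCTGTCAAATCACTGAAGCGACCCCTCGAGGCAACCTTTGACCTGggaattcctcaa
Mbnl2 54-base exon: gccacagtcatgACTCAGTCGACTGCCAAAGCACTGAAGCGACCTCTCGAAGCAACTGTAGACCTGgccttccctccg
Mbnl1 36-base exon: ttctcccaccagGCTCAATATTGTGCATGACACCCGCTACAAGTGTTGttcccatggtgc
The next ones lie in other genes and lost inclusion. They are shown because they had large differences and differ in length and in how many GC-centred motifs they hold.
Nfix 123-base exon: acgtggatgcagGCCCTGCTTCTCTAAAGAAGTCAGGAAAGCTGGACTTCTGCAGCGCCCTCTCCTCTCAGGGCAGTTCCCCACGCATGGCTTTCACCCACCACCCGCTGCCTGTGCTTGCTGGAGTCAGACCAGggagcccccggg
Zdhhc1 159-base exon: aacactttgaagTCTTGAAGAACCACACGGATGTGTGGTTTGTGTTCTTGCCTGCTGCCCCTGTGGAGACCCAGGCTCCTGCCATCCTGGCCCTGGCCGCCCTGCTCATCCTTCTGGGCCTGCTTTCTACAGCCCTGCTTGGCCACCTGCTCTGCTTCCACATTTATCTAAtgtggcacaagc
Kif3a 9-base exon: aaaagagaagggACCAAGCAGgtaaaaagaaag
Osbpl8 37-base exon: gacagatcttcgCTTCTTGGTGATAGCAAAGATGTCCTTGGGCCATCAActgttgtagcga
Tmem180 172-base exon: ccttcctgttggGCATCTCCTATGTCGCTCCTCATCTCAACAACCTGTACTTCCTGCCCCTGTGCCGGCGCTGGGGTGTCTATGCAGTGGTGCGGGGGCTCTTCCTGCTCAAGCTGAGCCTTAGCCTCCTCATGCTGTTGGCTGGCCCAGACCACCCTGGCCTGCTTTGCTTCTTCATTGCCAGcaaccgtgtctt
Ppp1r12a 171-base exon: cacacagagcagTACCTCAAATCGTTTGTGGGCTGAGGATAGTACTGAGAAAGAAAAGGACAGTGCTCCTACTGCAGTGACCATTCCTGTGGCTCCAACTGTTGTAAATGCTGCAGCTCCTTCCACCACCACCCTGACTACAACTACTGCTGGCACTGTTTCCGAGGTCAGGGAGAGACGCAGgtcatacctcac
The last 3 gained inclusion.
App 57-base exon: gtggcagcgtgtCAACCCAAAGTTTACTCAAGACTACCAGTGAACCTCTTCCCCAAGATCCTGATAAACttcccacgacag
Picalm 24-base exon: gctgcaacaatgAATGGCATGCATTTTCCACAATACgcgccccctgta
Pdlim7 17-base exon: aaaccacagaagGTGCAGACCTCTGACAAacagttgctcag

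Exon inclusion came from the junction reads of the deposited rMATS table listed for the siFmr1 nMBNL1 samples. That table compares 2 sets of 3 replicates without naming them. Its set 2 held the same reads, for 100% of 44006 shared events, as a set of the table listed for siNT pcDNA and siFmr1 pcDNA, and its set 1 matched any set of the other 3 tables for at most 0.0227% of events. Set 1 was therefore taken as siFmr1 nMBNL1 and set 2 as siFmr1 pcDNA, and every direction below rests on that reading. The positions within a set are not tied to replicate numbers. One more set, which the other 3 co-transfection tables share, is given as a reference level and called the shared set.

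Of 54552 skipped exon events tested, 138 were called (0.253%), at a quasi-binomial adjusted p under 0.05 and a difference of at least 10 percentage points. Inclusion was higher in the nMBNL1 set for 37 events (0.0678%) and lower for 101 (0.185%). The called events concerned 135 exons in 117 genes. Of the 138, 54 kept a quasi-binomial adjusted p under 0.05 in each of the 6 fits that left out 1 replicate (11 higher, 43 lower). Of these, 50 lay outside Mbnl1. Here and below, a named event counts as called in such a fit by that p alone, without the minimum difference. Total calls per fit used both criteria: leaving out position 3 of set 1 gave 81 and leaving out position 3 of set 2 gave 73. In the authors' deposited table, the rMATS FDR and the same difference called 895 of 61886 events, 330 higher and 565 lower. The version of the test that was run first, described below, called 370 events, 118 higher and 252 lower. With no minimum difference the test reported called 599, 76 higher and 523 lower.

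The largest differences were in Mbnl1. The 54-base exon that carries the nuclear localisation signal (chr3:60614683-60614736, coding) was included at 98.2%, 98.3% and 98.9% in the nMBNL1 set and at 27.5%, 39.0% and 38.5% in the pcDNA set. The difference was 63.5 percentage points, and the shared set averaged 57.7%. The 36-base exon (chr3:60621423-60621458, coding) moved the other way, from 95.1%, 93.7% and 97.1% in the pcDNA set to 2.09%, 1.93% and 1.79% in the nMBNL1 set. The 95-base exon (chr3:60622146-60622240, coding) was at 99.7%, 99.8% and 99.7% against 82.7%, 78.5% and 77.8%. The nMBNL1 set thus held almost only Mbnl1 RNA with the 54-base and 95-base exons and without the 36-base exon, and reads of the plasmid and of the cells' own transcripts cannot be told apart in it. Mbnl1 junction reads averaged 1761 ± 135 per 1000000 junction reads (SD, n = 3) in the nMBNL1 set and 83.4 ± 1.62 in the pcDNA set, a ratio of 21.1 against the 2.66 of the gene table. The cause of that gap between the tables was not tested.

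In Mbnl2, which the plasmid does not encode, the 54-base exon fell. This exon (chr14:120395712-120395765, coding) matches the Mbnl1 exon at 46 of its 54 bases (85.2%), and the 2 sequences above can be compared base by base. It was included at 19.4%, 17.3% and 17.3% in the nMBNL1 set and at 34.1%, 39.9% and 23.6% in the pcDNA set, without overlap. The difference was -14.6 percentage points (quasi-binomial adjusted p 0.00285), and the call held in 4 of the 6 fits without 1 replicate. The shared set had 40.3%, 39.3% and 41.4%, a range that held the highest pcDNA value and lay above the other values of both sets. The Mbnl2 95-base exon (chr14:120404638-120404732, coding) was at 71.3%, 66.9% and 67.2% against 77.0%, 78.8% and 80.1%, and its difference of -10.2 points missed the threshold (quasi-binomial adjusted p 0.179). The other Mbnl2 exons tested were included at over 93% in both sets and were not called.

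Outside the muscleblind genes, most large differences were losses of inclusion. The 75-base exon of Dnajc5 (chr2:181548926-181549000, partly coding), the gene of a synaptic vesicle cochaperone, was included at 51.7%, 52.4% and 57.1% in the nMBNL1 set and at 100% in each pcDNA replicate, where no skipping read was seen among 80 to 120 junction reads. Its quasi-binomial adjusted p was 2.38e-13. A second Dnajc5 exon of 172 bases, just before it on the chromosome, averaged 87.4% against 100%. The 9-base exon of Kif3a (chr11:53590717-53590725, coding), a subunit of the kinesin-2 motor, was at 28.6%, 28.4% and 32.7% against 74.2%, 75.9% and 64.0%, a difference of -41.5 points (quasi-binomial adjusted p 2.94e-20). Both were called in all 6 fits without 1 replicate.

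Zdhhc1, a palmitoyltransferase gene, lost inclusion of its 159-base exon (chr8:105476371-105476529, coding), which was at 51.3%, 51.6% and 33.3% against 84.0%, 85.7% and 92.5%. The 37-base exon of Osbpl8 (chr10:111224672-111224708, coding), a lipid transfer protein gene, was at 73.4%, 69.2% and 64.7% against 97.9%, 99.0% and 91.9%. The sets did not overlap in either, the quasi-binomial adjusted p was 0.000354 and 1.1e-05, and both calls held in all 6 fits without 1 replicate. The 195-base exon of St6galnac3 (chr3:153509303-153509497, coding), a sialyltransferase gene, ranged widely in the nMBNL1 set, at 63.1%, 56.7% and 88.4%, and was at 100% in each pcDNA replicate. Its call held in all 6 fits. The remaining exons of large difference were less stable. Tmem180 (172 bases, mean 46.2% against 74.5%) and Slc22a5 (172 bases, 69.7% against 99.1%) kept their call in 2 of the 6 fits without 1 replicate, and Ice2 (130 bases, 46.2% against 75.5%) in 1.

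A list of 60 genes with exons known or likely to be MBNL-regulated had 524 tested skipped exon events outside Mbnl1. Of these, 8 were called (1.53%, against 0.253% of all events), 3 higher and 5 lower. The 524 cover all tested skipped exon events of these genes, not only exons known as MBNL targets. The 8 include the nuclear localisation exon of Mbnl2 given above. The list was chosen with earlier results of these data known, so enrichment of MBNL targets was not tested. Nfix, a transcription factor gene whose 123-base exon (chr8:84723728-84723850, coding) is a known MBNL target, averaged 24.1% ± 10.4 against 77.2% ± 11.4 (SD, n = 3), although its mean depth was only 26.7 junction reads, and its call held in 4 of the 6 fits. Ppp1r12a, the targeting subunit of myosin phosphatase, had its 171-base exon (chr10:108253325-108253495, coding) at 66.1%, 65.8% and 62.7% against 84.8%, 88.7% and 83.3%. The sets were well separated, with a quasi-binomial adjusted p of 6.46e-08 and a call in all 6 fits. Arhgef7, a Rac and Cdc42 exchange factor, averaged 72.0% against 87.5% for its 225-base exon and was called in 2 of the 6 fits. Pdlim7, a PDZ and LIM domain protein, had an exchange between neighbouring exons. Its 119-base exon (chr13:55508208-55508326, coding) was at 71.3%, 69.8% and 70.3% against 85.9%, 86.8% and 85.2% (called in all 6 fits), and its 17-base exon averaged 59.96% against 44.2% (called in 1).

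App and Picalm gained inclusion. The 57-base exon of App, the amyloid precursor gene (chr16:85040251-85040307, coding), was at 70.4%, 70.5% and 67.3% in the nMBNL1 set and at 60.1%, 57.6% and 57.6% in the pcDNA set, with a mean of 1797 junction reads per replicate (quasi-binomial adjusted p 8.08e-11, called in all 6 fits). The shared set averaged 59.4%, near the pcDNA set. The 24-base exon of Picalm, a clathrin assembly gene (chr7:90194273-90194296, coding), was at 56.4%, 50.5% and 50.8% against 43.1%, 42.8% and 41.7%, and at a mean of 23.0% in the shared set (quasi-binomial adjusted p 0.000836, called in 5 of the 6 fits). The shared set thus lay beside the pcDNA set for App and below both sets for Picalm.

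**Figure D1:**
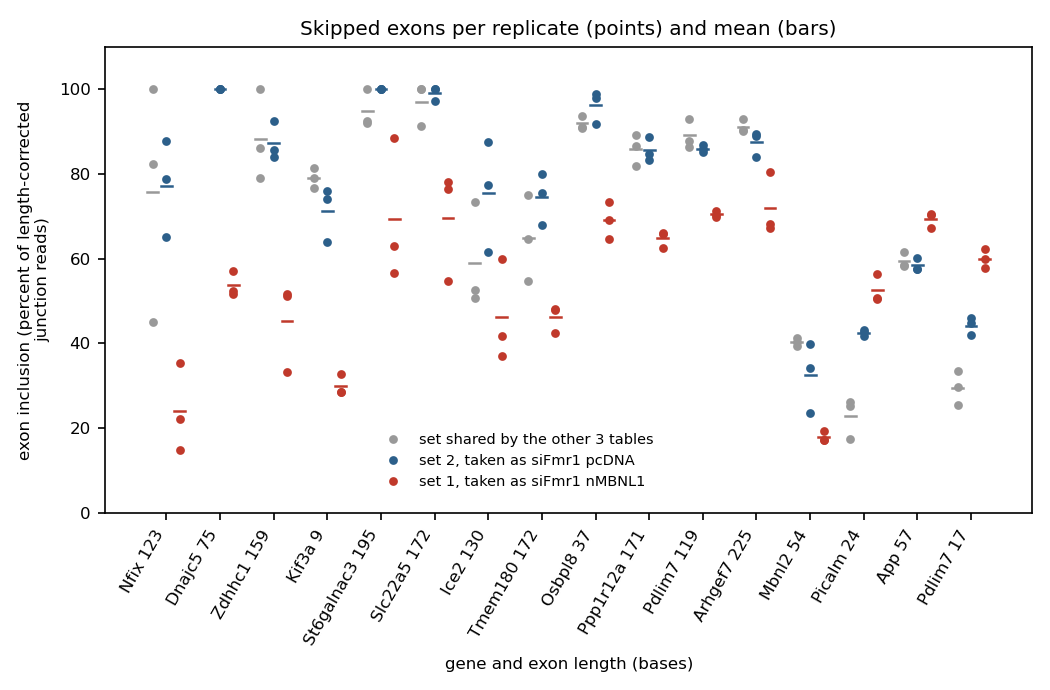
Inclusion of the named skipped exons outside Mbnl1, in percent of length-corrected junction reads, for each replicate (points) with the mean (bars). Red points (set 1, taken as siFmr1 nMBNL1) lie below blue points (set 2, taken as siFmr1 pcDNA) for Nfix to Mbnl2 and above them for Picalm, App and the 17-base exon of Pdlim7. Grey points are the set that the other 3 tables share, which lists no value for Dnajc5.

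Exons with lower inclusion held more GC-centred motifs. GC with T or C on either side (TGCT or CGCC, or a mixed form, TGCC or CGCT) was counted on the transcribed strand, overlaps included, in exons of 28 to 300 bases outside Mbnl1. The 88 exons with lower inclusion held 3.12 matches per 100 bases, the 26 with higher inclusion 1.15 and all 39219 tested exons 1.63. At least 1 match was found in 87.5% of the first, 53.8% of the second and 77.3% of all tested exons. These groups also differed in other ways that were not tested: median length was 128.5, 93.0 and 118.0 bases and median GC content 54.8%, 47.1% and 50.6%. Among the exons printed above, Zdhhc1 held 10 matches, Tmem180 9, Nfix 6 and Ppp1r12a 3, while Kif3a, Osbpl8, App, Picalm and the 17-base exon of Pdlim7 held 0. Intron sequence was not used here, so matches before or after the exons were not counted.

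The exons also differed in starting level, length and frame. Exons that lost inclusion started from a median of 95.7% in the pcDNA set and those that gained it from 40.4%, against 99.7% over all 41409 tested exons. A length divisible by 3, which leaves the reading frame intact when a coding exon is skipped, was found for 48 of 99 exons with lower inclusion (48.5%), 22 of 32 with higher inclusion (68.8%) and 38.7% of all tested. Among tested exons whose pcDNA inclusion was between 10% and 90%, that share was 52.0%. Exons of at most 27 bases made up 4 of the 99, 4 of the 32 and 0.823% of all tested exons, but 4.19% of those between 10% and 90%.

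**Figure D2:**
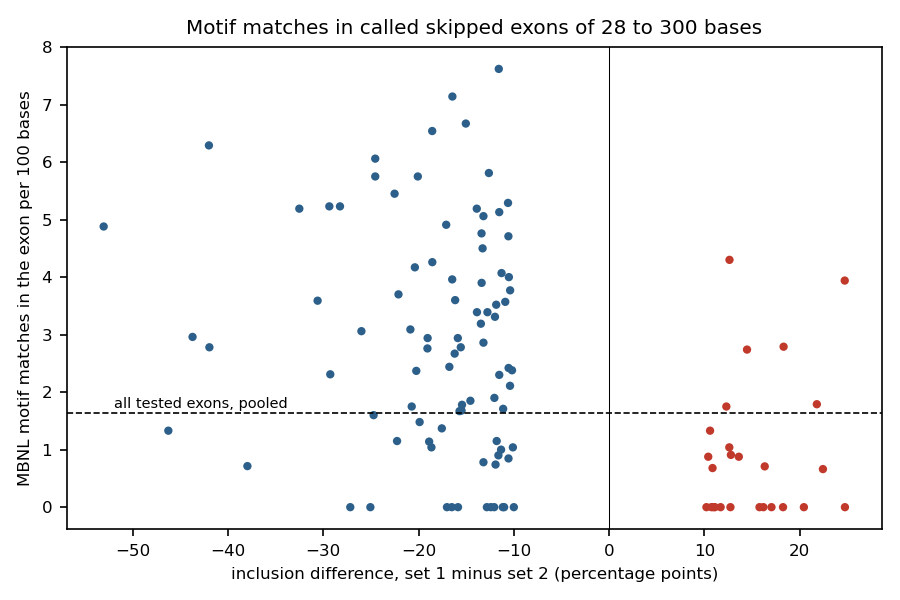
Motif matches per 100 exon bases (vertical axis) against the inclusion difference in percentage points (horizontal axis) for each called skipped exon of 28 to 300 bases outside Mbnl1. Blue points lost and red points gained inclusion in the nMBNL1 set, and the dashed line is the pooled value of 1.63 over all tested exons. Exons with over 5 matches per 100 bases all lie on the side of lower inclusion.

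Other event types added few calls. Among mutually exclusive exon pairs, 14 of 12658 were called (0.111%). In Tpd52l2, a gene of the tumor protein D52 family, use of a 102-base exon over a 42-base exon averaged 44.6% against 22.0% (called in all 6 fits), and in Mbnl1 the 36-base exon was chosen over the 95-base exon in 0.336% against 34.7% of reads. In Pdlim7 the share of the 119-base exon over the 17-base exon was 80.5% against 91.3%. For alternative 3′ splice sites, 12 of 1203 events were called (0.998%), all with less use of the longer form. Among them were the splicing factor Sf1 (82.5% against 98.1%) and the actin regulator Enah (31.9% against 47.2%), both called in all 6 fits, while Asb1 (36.2% against 59.9%) and Rundc3a (33.7% against 56.8%) had the largest differences but kept their call in 2 fits. Without position 2 of set 2 there were 3 calls of this type. The deposited FDR with the same minimum difference called 50 of these sites, 16 with more use of the longer form and 34 with less.

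Of alternative 5′ splice sites, 4 of 896 were called (0.446%), including Mapk8ip3, a kinesin adaptor (41.6% against 25.8%), and the zinc transporter gene Slc39a11 (19.0% against 30.5%). Of 266 retained introns, 5 were called (1.88%), all with less retention in the nMBNL1 set. Among them were introns of Vamp1, a vesicle SNARE (55.1% against 94.5%), Bicd2 (19.7% against 34.4%), Qsox1 (41.9% against 57.3%) and Luc7l (35.7% against 50.6%). No 5′ site was called without position 1 of set 1 or position 2 of set 2, and no intron without position 1 or position 3 of set 2. Without position 2 of set 1 there was 1 call of each type, without position 3 of set 1 there were 2 introns, and without position 1 of set 2 there were 2 of the 5′ sites. The deposited FDR with the same minimum difference called 18 introns, 2 with more retention and 16 with less. Of 136 genes with a called event of any of the 5 types outside Mbnl1, 135 were in the gene test described next, and 5 of them were called there (3.7%, against 1.76% of all genes): Celsr3, Mapk8ip3, Mboat7, Mink1 and Wdr34.

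At the level of genes, 286 of 16242 tested genes were called (1.76%), at a limma adjusted p under 0.05. Values were higher with nMBNL1 for 103 genes (0.634%) and lower for 183 (1.13%). Only 40 of the 286 changed by at least 1 on the log2 scale, 35 higher and 5 lower. The spread that entered this test came from all 5 groups, and the siNT pcDNA group had a median SD of 0.24 (log2) against 0.10 in siFmr1 pcDNA and 0.11 in siFmr1 nMBNL1. A fit without siNT pcDNA called 2626 genes (1270 higher, 1356 lower) and a fit of only the 6 samples 2314 (1078 higher, 1236 lower), each including all 286, so the calls were split more evenly than in the fit of 15 samples. Quantile normalisation called 151 higher and 181 lower. Leaving out nMBNL1 replicate 1, 2 or 3 gave 187, 35 and 42 calls, and leaving out pcDNA replicate 1, 2 or 3 gave 28, 40 and 98. The 22 genes called in the test and in all 6 of those fits are described first.

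**Figure D3:**
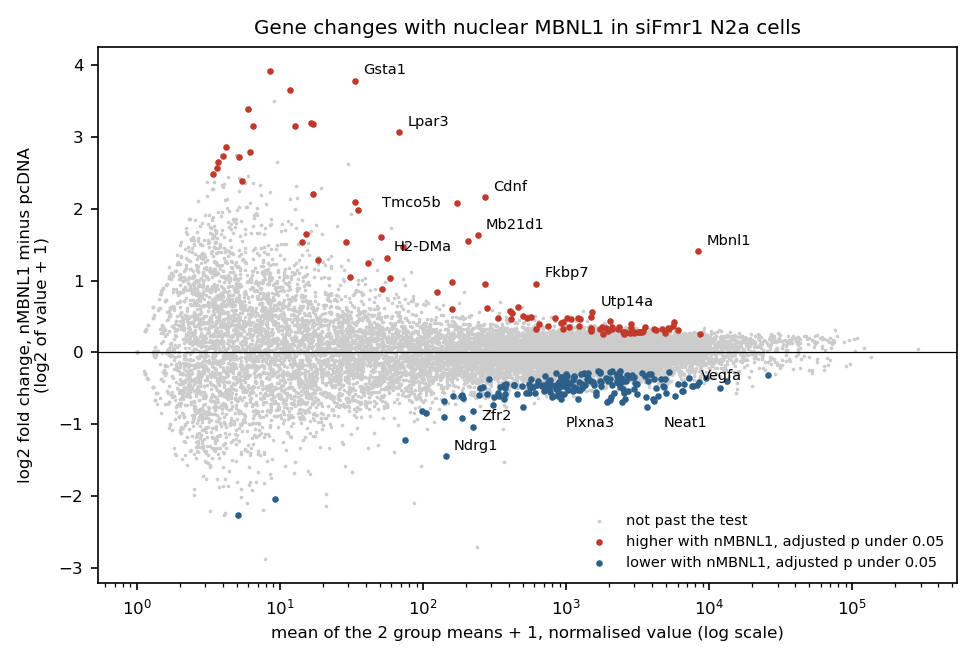
Log2 fold change (nMBNL1 minus pcDNA, of value + 1) against mean normalised value on a log axis, for the 16242 tested genes. The 103 genes called higher (red) include the few large changes, such as Lpar3 and Cdnf, and the 183 called lower (blue) lie mostly between 0 and -1.

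Of these 22 genes, the largest increases were of genes low in the control cells. Gm3776 and Glipr1l1, near 0 in pcDNA and described below, had the largest log2 fold changes (3.65 and 3.19). Lpar3 (chr3:146220963-146286186), a lysophosphatidic acid receptor, had 111, 133 and 116 in nMBNL1 against 19.3, 17.5 and 6.97 in pcDNA (log2 fold change 3.06, SE 0.33, limma adjusted p 0.000197). Cdnf (chr2:3513030-3526376), a neurotrophic factor of the endoplasmic reticulum, had 406, 453 and 466 against 104, 89.9 and 98.4 (log2 fold change 2.17, SE 0.17, limma adjusted p 8.67e-06). Both genes were low in all 3 pcDNA samples and several times higher in all 3 nMBNL1 samples. Tmco5b, a coiled-coil membrane protein gene, had 290, 292 and 258 against 59.0, 78.0 and 60.1.

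Mb21d1, also known as cGAS, the sensor of cytosolic DNA, had 316, 374 and 398 with nMBNL1 against 138, 102 and 112 (log2 fold change 1.63, SE 0.15, limma adjusted p 3.63e-05). H2-DMa, a chaperone of peptide loading on MHC class II, had 306, 341 and 275 against 95.3, 105 and 111 (log2 fold change 1.56). Fkbp7, a prolyl isomerase of the endoplasmic reticulum, had 786, 787 and 867 against 429, 350 and 487. Smaller changes with tight replicates were seen in a pair of further genes. Utp14a, a ribosome biogenesis factor, had 1753, 1784 and 1886 against 1200, 1203 and 1283 (log2 fold change 0.56). Zfand2a, a stress-induced proteasome regulator, had 2335, 2383 and 2276 against 1718, 1701 and 1723 (0.44). Gm3776, a glutathione transferase alpha gene next to Gsta1 on chromosome 9, and Glipr1l1 were near 0 in pcDNA, with at most 3.30 and 3.40. With nMBNL1, Gm3776 had 13.6, 18.1 and 29.5 and Glipr1l1 30.1, 12.9 and 43.6, so both stayed low.

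Decreases among the 22 genes were smaller than the largest increases. Neat1 (chr19:5824708-5845478), the noncoding RNA that scaffolds paraspeckles, had 2514, 2980 and 2698 with nMBNL1 against 4455, 4494 and 4850 with pcDNA (log2 fold change -0.75, SE 0.09, limma adjusted p 0.000568), and 10439, 8378 and 10591 in siNT pcDNA. Plxna3, a semaphorin receptor subunit, had 1521, 1572 and 1361 against 2328, 2415 and 2436 (log2 fold change -0.69). Leng8 had 2825, 3008 and 2666 against 4351, 4281 and 4441 (-0.62). Cntnap1, the paranodal adhesion protein Caspr, fell by 0.57 on the log2 scale, Vegfa, the angiogenic growth factor, fell by 0.47, and the kinase Map4k2 fell by 0.57. Lmtk3, Med12, Trim46 and Rhoq fell by 0.59, 0.56, 0.42 and 0.40. One more of the 22, lower by 0.68, was listed under a date in place of its symbol and is not named.

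**Figure D4:**
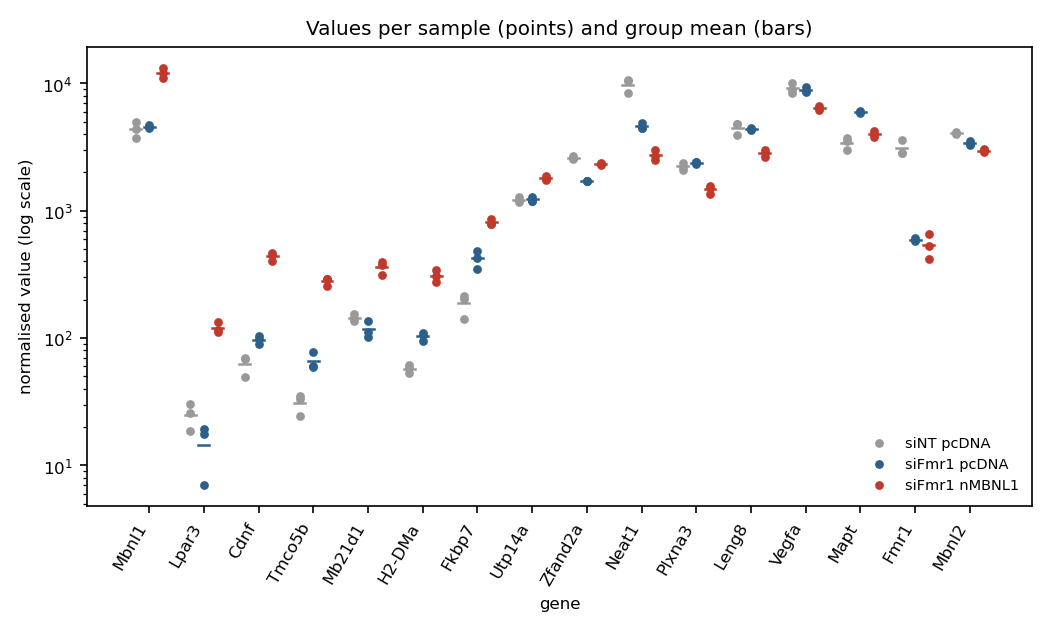
Normalised values on a log axis for each sample (points) and group mean (bars), for Mbnl1, Fmr1, Mbnl2, Mapt and genes called in all fits without 1 library. Red (siFmr1 nMBNL1) and blue (siFmr1 pcDNA) points do not overlap except for Fmr1, and grey points are siNT pcDNA.

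Other named genes passed the test but were lost in some of the fits without 1 library. Among the largest increases, Gsta1, a glutathione transferase that could share reads with its paralog Gm3776, had 33.0, 86.9 and 54.2 against 2.27, 0 and 18.3, and was called in 2 of the 6 fits. Bhlha15, the transcription factor Mist1 of secretory cells, had 67.8, 50.04 and 46.1 against 11.3, 9.86 and 19.2 and was called in 4. The processed pseudogene Gm11517 was called in 5 of these fits, Ssmem1 in 2 and Ly6g5b in 1. Among the largest decreases, Ndrg1, a gene induced by hypoxia, had 123, 48.3 and 67.4 against 221, 161 and 234, with nMBNL1 replicate 1 nearest the pcDNA samples, and was called in 1. Zfr2 had 142, 166 and 126 against 285, 273 and 334 and was called in 5. The kinesin gene Kifc2 and Rnft2 were called in 1 of these fits, Ago4, an Argonaute protein of small RNA silencing, in 2, and Tmem191c and Dhh, a hedgehog ligand, in 0.

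Gene lists were read against the 1.76% called among all tested genes, whose median log2 fold change was 0.00. Genes of glycolysis and hypoxia had the most calls, 6 of 32 tested, all lower, with a median of -0.30. Slc2a1, the glucose transporter GLUT1, had 1897, 1283 and 1527 with nMBNL1 against 2536, 2414 and 2431. Eno2, the neuronal enolase, had 4050, 2570 and 2957 against 4966, 4899 and 4861. In both, as in Ndrg1, nMBNL1 replicate 1 was nearest the pcDNA samples. Pfkp, a phosphofructokinase, fell by 0.42 on the log2 scale, and Ero1l, an oxidase of the endoplasmic reticulum, fell by 0.50. Vegfa, given above, completes the 6. The list had 8 calls without nMBNL1 replicate 1, 2 without nMBNL1 replicate 2 or 3, and 1, 2 and 3 without pcDNA replicate 1, 2 and 3, all lower.

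Extracellular matrix and adhesion genes had 4 calls of 36, all lower (median -0.20). They were the basement membrane proteins Lama5 (379, 371 and 360 against 676, 634 and 583), Agrn and Col18a1 and the fibronectin receptor subunit Itga5, with log2 fold changes from -0.77 to -0.61. Of 31 immediate early genes, 3 were called, all lower (median -0.19): the transcription factor Egr3 (177, 121 and 183 against 327, 220 and 299) and the feedback regulators of receptor signalling Dusp6 and Spry1, which fell by 0.47 and 0.44 on the log2 scale. Of 31 genes of synapses and vesicle release, 3 were called, all lower (median -0.18). Unc13a, which primes vesicles for release, had 4879, 4284 and 4562 against 6959, 7000 and 6950, and Syn1, a synaptic vesicle phosphoprotein, fell by 0.57 on the log2 scale. Matrix, immediate early and synapse calls dropped to 0 without pcDNA replicate 1 and without nMBNL1 replicate 3. Without nMBNL1 replicate 2 they were 1, 0 and 0, and without pcDNA replicate 2 they were 0, 1 and 0. Without pcDNA replicate 3 the immediate early calls were 0 too.

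Of 27 genes of the neuronal cytoskeleton and outgrowth, 2 were called, both lower (median -0.18). Mapt, the microtubule protein tau, had 4255, 3779 and 4044 with nMBNL1, 6023, 6001 and 5839 with pcDNA, and 2996, 3749 and 3550 in siNT pcDNA. L1cam, a neural adhesion molecule, fell by 0.49. The amino acid and ATF4 stress list had 2 calls of 40, both lower (Ddit4, an inhibitor of mTORC1, and Cebpg), with a median of -0.13 and 31 of 40 negative. Cholesterol and fatty acid synthesis had 1 of 34 (Dhcr7, lower), with a median of -0.17 and 32 of 34 negative. An unadjusted limma p under 0.05 was found for 15 of the 34, against 2901 of all 16242 tested genes. With only the 6 samples fitted, 10 and 11 genes of these 2 lists were called, all lower, against 2314 of all 16242 tested genes. Of p53 targets, 1 of 24 was called (Btg2, lower; median 0.03). Interferon and nucleic acid sensing genes had 2 calls of 34, both higher (median 0.20): Mb21d1, above, and Ifih1, the RNA sensor MDA5, with 62.9, 69.0 and 65.1 against 30.6, 38.3 and 36.6. Of the glutathione and NRF2 list, 1 of 33 was called, Gsta1. In the 6 fits without 1 library, Mapt, L1cam and Btg2 were each called in 2, Ddit4, Dhcr7 and Ifih1 in 1 and Cebpg in 0.

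Some lists had no call in the fit of 15 samples. None was called among 53 splicing factors, 46 genes of the cell cycle and DNA replication, 20 endoplasmic reticulum chaperones, 17 heat shock chaperones and 30 BMP, Notch and Wnt response genes by limma, with 13, 17, 3, 1 and 4 at an unadjusted p under 0.05. Over all 16242 tested genes, 2901 had an unadjusted limma p under 0.05. The 80 ribosomal protein and 80 oxidative phosphorylation genes had no call and 5 each at an unadjusted p under 0.05, but 77 and 74 of them had a positive log2 fold change (medians 0.18 and 0.14), against 8132 of all 16242 genes. With only the 6 samples fitted, 36 and 18 of them were called, against 2314 of all 16242 tested genes. The cell cycle list had a median of 0.15 with 38 of 46 positive, and 15 of its genes, all higher, were called with only the 6 samples. The splicing factors had a median of -0.04 with 34 of 53 negative, and 10 (2 higher, 8 lower) were called in that fit. The endoplasmic reticulum chaperones, heat shock chaperones and BMP, Notch and Wnt genes had 4, 2 and 5 calls there. The summed value of the ribosomal protein genes was 2754300 to 2884700 in the nMBNL1 samples and 2397100 to 2621200 in the pcDNA samples, without overlap.

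**Figure D5:**
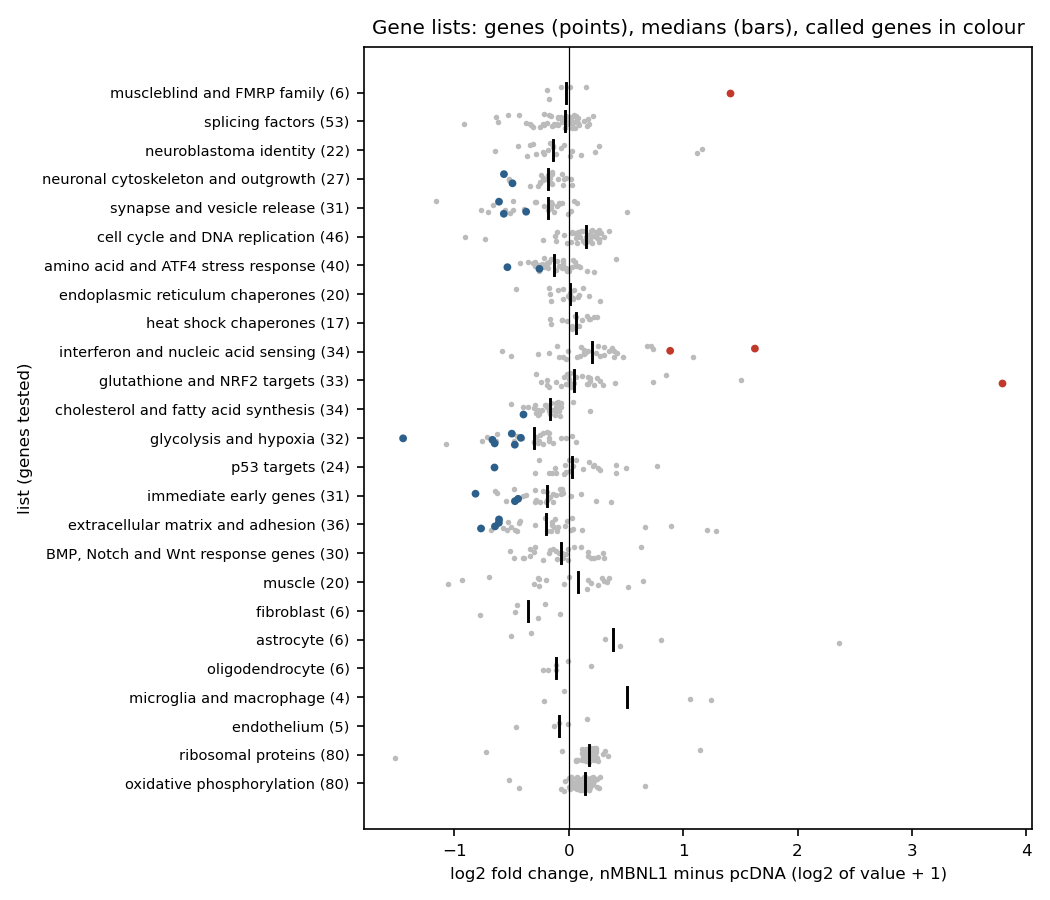
Log2 fold change (nMBNL1 minus pcDNA, of value + 1) of each tested gene in the lists, with the list median as a black bar and called genes in red (higher) or blue (lower). The 6 called genes of the glycolysis and hypoxia list all lie below 0, and the ribosomal protein genes cluster at a median of 0.18 with no call.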

How the data were processed

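RNA of siRNA and plasmid co-transfected N2a cells was sequenced from NEBNext Ultra II Directional libraries on a NovaSeq 6000, per the labels' protocols. The submitters' processing notes name STAR 2.6.1, RSEM 1.3.1, DESeq2 1.16.1 and GRCm38, without their roles. The gene signal was deposited by the authors as normalised counts, by a method not given in the sources used here. Of its 23091 rows, 27 carried dates in place of symbols, and 4 of these, with names that occurred 2 times, were left out. The deposited junction read counts, inclusion differences and other values, and FDR p-values were rMATS output of the authors, whose version is not given in the sources used here. Inclusion recomputed from the reads was within 0.002 of the difference in the authors' tables for 100% of events that had reads in all 6 replicates.

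Genes averaging 1 or more across the 15 samples entered limma 3.58.1 (R 4.3.3, intensity trend) on log2(value + 1) in 1 fit of 5 groups, with Benjamini-Hochberg adjustment. Fold changes on that scale understate changes of low genes. No count model was used, since whole reads could not be recovered. Events with a mean of at least 20 junction reads in each set were re-tested with a quasi-binomial model, with a dispersion moderated across events, not under 1, and an F test. The dispersion was trended on the reads of the rarer form after a version with 1 prior had been run and its count seen, and the closing section gives both counts. Both tests were tested on simulated data. The splicing simulation was revised after earlier versions, with a larger spread or with changes at any depth, had recovered too few of the changed events, and its final version placed the changes in deeply covered events only, so small-depth changes can be missed. Named genes were the Mbnl and Fmr1 families, the 10 largest changes in each direction with a mean of at least 50, the 3 largest per list and the 5 lowest adjusted p, and those called in every fit without 1 library. Named exons were the 10 largest differences with at least 50 reads, 2 per other event type, called events of the MBNL list and events of Mbnl1 and Mbnl2. The genes called in every fit, further called list genes and the other events named were added after their values were seen. The members and lists were chosen with earlier results of these data known. Gene positions and exon sequences come from GENCODE M21 (GRCm38), counted from 1. Of tested genes, 95.8% matched it by symbol. Pseudocounts, filters, scaling, sample sets, weights, left-out replicates and thresholds were varied. Some genes that met these rules are not reported here.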

Additional observations from a re-analysis of the deposited data

How the results depend on the processing

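Gene calls numbered 286 in the fit reported. They were 2314 with only the 6 samples, 2626 without siNT pcDNA, 4898 with sample weights (whose estimation did not fully converge), 40 at a change of 1 or more on the log2 scale, and 28 to 187 without 1 library. Calls within the gene lists were 194, 223 and 332 in the first 3 of these and 3 to 28 without 1 library, against 26. Other pseudocounts, filters, TMM factors and quantile normalisation gave 259 to 332 gene calls. Of the 60 named genes, none with a call in either fit reversed its sign. The labels do not say whether equal replicate numbers pair the samples. Deviations of same-numbered samples correlated at -0.004, 0.011 and 0.011 over 16242 genes, and those of differently numbered samples at -0.035 to 0.025. These values cover all tested genes, low ones included, and do not settle whether the samples were paired. With the replicate number as a block the fit of 15 samples called 195 genes, and the fit of the 6 samples, added after seeing the data, 3610 genes and 318 list genes. Splice set positions carry no replicate number, so no block was fitted there. Skipped exon calls were 138 in the test reported, 370 with 1 dispersion prior for all events (the version run first), 37 at 20 points, 599 with no minimum difference and 73 to 118 without 1 replicate. The deposited FDR called 895, or 563 of the events re-tested here, an alternative added after seeing the data. It called 83 (72 of those re-tested) mutually exclusive pairs, 50 (31) 3′ sites, 35 (16) 5′ sites and 18 (18) introns. Without 1 replicate these types had 10 to 21, 3 to 12, 0 to 4 and 0 to 6 calls. The cause of these shifts was not tested, except that fewer samples or a higher threshold enter by construction. Junction depth limited Nfix and other low events.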

Other observations

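The called genes differed from all tested genes in annotated transcript length and GC content. The 183 genes called lower had a median longest transcript of 4380 bases with 55.2% GC, the 103 called higher 2700.5 bases with 46.8% GC, and all tested genes 3183 bases with 49.9% GC. Their part in the calls was not tested.

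Of the 54 skipped exon events called in all 6 fits without 1 replicate, 5 more are given here, chosen after their values were seen. The 24-base exon of Mapk8ip3, a kinesin adaptor, averaged 53.96% in the nMBNL1 set and 80.5% in the pcDNA set, and a 60-base exon of the dynein intermediate chain gene Dync1i2 averaged 30.4% against 46.1%. A 111-base exon of the cortical actin regulator Cttn averaged 66.5% against 78.1%. Myo5a, a myosin motor, gained inclusion of a 75-base exon (32.6% against 16.4%), and the kinesin-13 gene Kif2a of a 114-base exon (21.5% against 11.1%).

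Fmr1 junction reads averaged 8.13 ± 1.44 per 1000000 junction reads (SD, n = 3) in the nMBNL1 set, 7.72 ± 0.857 in the pcDNA set and 60.2 ± 18.1 in the shared set.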
